A study of Homo sapiens with 30 samples.

Results

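Of the 30 RNA libraries in the series, all from the melanoma line A375 (human, with an activating BRAF mutation), 6 were compared, 3 from cells that crossed a porous membrane in 5 rounds and 3 from cells that did not. The 6 were chosen by their titles. These name a positive sort for integrin β4 (ITGB4), 5 rounds and the bottom or the top side of the membrane. No measured value entered that rule, but earlier results of these data were known when the groups were set. The crossed cells were labelled Parental cells of positive ITGB4 status that had migrated for 5 rounds through 5 micron pores. The uncrossed cells were labelled as having failed to migrate in 5 rounds through the same pores, with positive ITGB4 status. Sorting used a fluorescent antibody to ITGB4 with the gate set on unstained cells, and the filters were coated with fibronectin. The label of the crossed cells places the positive sort before migration, whereas that of the uncrossed cells does not say when the sort took place, so the side of the membrane and the time of the sort cannot be told apart. Libraries of a group were numbered 1 to 3 as biological replicates without a statement of separate cultures. The p-values thus measure only the spread between libraries within groups, estimated over all 10 groups of the series and not from the 6 alone.

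Integrin β4 pairs with the α6 subunit to form a receptor for laminin, the main glycoprotein of basement membranes, and in epithelia the pair anchors keratin filaments at hemidesmosomes. Melanoma cells can move between a melanocytic state driven by MITF and SOX10, a neural crest-like state and a dedifferentiated state with high AXL, EGFR and WNT5A. In a transwell assay cells must squeeze the nucleus through a pore narrower than its resting diameter, and repeated rounds separate cells that cross from those that stay on top. The comparison asks, for cells with surface ITGB4, which transcripts differ between the cells that crossed and the cells that did not.

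Gene counts were 17138637 to 24624345 in the crossed libraries and 14258919 to 16101061 in the uncrossed libraries, with 15381 of 26364 listed genes tested. SOX10, the lineage factor of pigment cells, was at 443 to 880 CPM (counts scaled to library size) in crossed and 380 to 698 CPM in uncrossed libraries, and MITF was at 31.6 to 51.1 CPM in crossed and 35.4 to 43.1 CPM in uncrossed libraries. The pigment gene TYR had 0 counts in all 6 libraries and PMEL was at 1.68 CPM or less. Other lineage markers were less alike. S100B was at 11.7 to 25.4 CPM in crossed and 33.1 to 192 CPM in uncrossed libraries (edgeR, adjusted p = 0.0854). S100A1 was at 6.75 to 25.8 CPM in crossed and 31.1 to 419 CPM in uncrossed libraries (edgeR, adjusted p = 0.103). MCAM lay the other way, at 341 to 403 CPM in crossed and 245 to 346 CPM in uncrossed libraries (edgeR, adjusted p = 0.383). Uncrossed replicates 1 and 3 stood apart from the other libraries on the second principal component, with scores of 105.3 and 44.6, against -8.4 for uncrossed replicate 2 and -22.8 to -14.6 for the crossed libraries. In those 2 libraries the summed level of 45 cytosolic ribosomal protein genes was 141399 and 78502 CPM, against 47623 CPM in uncrossed replicate 2, and 49918 to 55208 CPM in the crossed libraries. The main counts are therefore also given without these 2 libraries, where 1 uncrossed library is left and is assumed to vary like the other groups.

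Of 15381 genes, 315 were called (2.05%, edgeR quasi-likelihood test, adjusted p under 0.05), and 19.8% had an unadjusted p under 0.05. Of the 315, 128 were higher in the crossed cells (0.832% of all genes) and 187 lower (1.22%). A fold change above 0, called or not, was found in 47.6% of all tested genes. Counts in the gene lists below are to be read beside these shares, and a single call in a list is no result about the list. The median log2 fold change of the called genes was 1.92 in size, and 314 of the 315 had 3 crossed libraries all above or all below the 3 uncrossed ones, as had 22.1% of all tested genes. Without uncrossed replicates 1 and 3, 48 genes were called (9 higher, 39 lower), 45 of them among the 315. Leaving out a single library gave 97, 176 and 146 genes without crossed replicates 1, 2 and 3, and 116, 1287 and 218 without uncrossed replicates 1, 2 and 3, while a fit of these 6 libraries alone called 1 gene. All 315 kept their direction without uncrossed replicates 1 and 3, with a median size of 1.62. With no overlap in 314 of them, the kept direction follows from the choice of genes and is no separate support. In bulk RNA, fewer cells that express a gene and less RNA per cell cannot be told apart. The plot of fold change against p shows SOX11 and SORCS1 among the lower and ZFPM2, FBXL7 and FOXP1 among the higher genes with the smallest p.

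**Figure D1:**
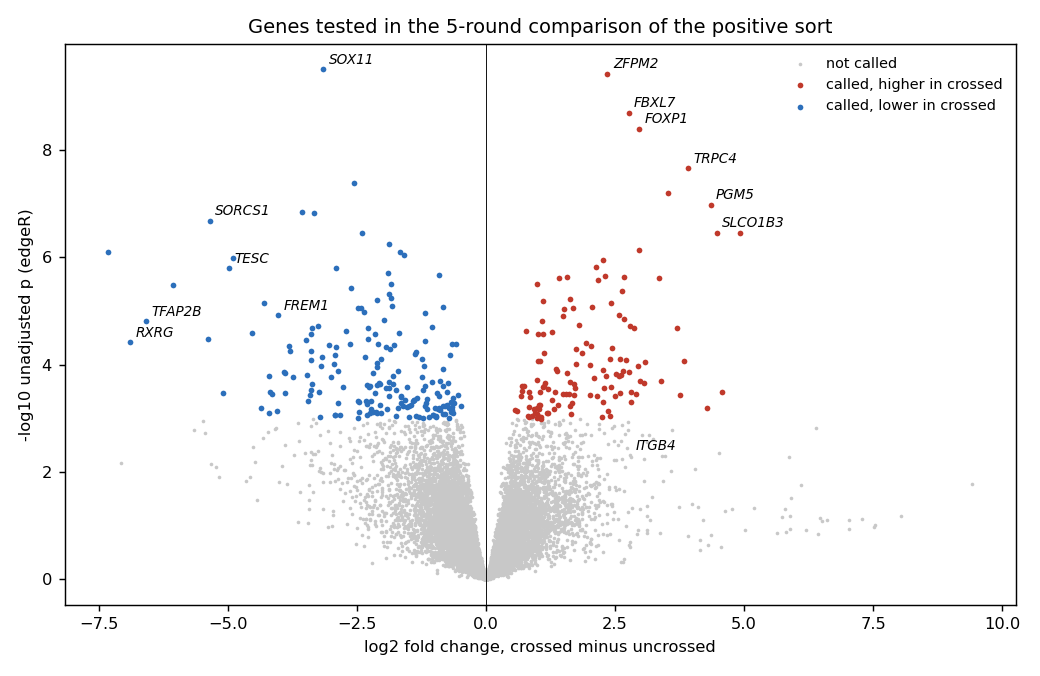
Each point is 1 of 15381 tested genes, with the log2 fold change (crossed minus uncrossed, 5 rounds, positive sort) on the x axis and -log10 of the unadjusted edgeR p on the y axis. Of the called genes, 128 in red lie right of 0 and 187 in blue lie left of it; ITGB4, at 2.79, is among the grey genes that were not called.

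ITGB4 itself was at 366, 114 and 103 CPM in the crossed libraries and at 17.9, 45.2 and 21.4 CPM in the uncrossed libraries. The groups did not overlap, and crossed replicate 1 stood above all others. The log2 fold change was 2.79 ± 0.90 (SE), which did not pass the test over all genes (edgeR, adjusted p = 0.105). Both groups had been sorted on surface ITGB4, yet the mean of the uncrossed libraries, 28.2 ± 14.9 CPM (SD, n = 3), lay beside that of the Parental negative sort, 27.8 ± 5.13 CPM, and that of the crossed libraries, 194 ± 149 CPM, lay beyond the Parental positive sort, 100 ± 66.6 CPM. ITGA6, the α6 partner of ITGB4, averaged 386 ± 120 CPM in crossed and 257 ± 79.2 CPM in uncrossed cells (edgeR, adjusted p = 0.229).

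No hemidesmosome or laminin receptor gene was called, and all 11 tested members had a fold change above 0, as had 47.6% of all tested genes. Their median log2 fold change was 0.77, against -0.03 over all genes, and 0.16 without uncrossed replicates 1 and 3. COL17A1, the transmembrane collagen of hemidesmosomes, averaged 1.99 ± 0.836 CPM in crossed and 0.419 ± 0.51 CPM in uncrossed cells (edgeR, adjusted p = 0.194), and PLEC, which ties keratin to the integrin, 1570 ± 53.7 CPM in crossed and 921 ± 716 CPM in uncrossed cells (adjusted p = 0.378). Among 15 other integrin subunits none was called. ITGA9, which forms a tenascin receptor with β1, was the nearest, at 0.966, 1.24 and 0.397 CPM in crossed and 14.3, 9.68 and 1.75 CPM in uncrossed libraries (log2 fold change -3.28 ± 0.89, edgeR, adjusted p = 0.0542).

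A few genes differed both between the sorts before any migration and between crossed and uncrossed cells. In Parental cells, which share no library with the 6, the positive sort differed from the negative sort in 9 genes (0.0585%; 6 higher, 0.039%, and 3 lower, 0.0195%; 4.45% at an unadjusted p under 0.05), and 8 of the 9 were called here in the same direction, 6 higher and 2 lower. The 8 were FOXP1, FBXL7, ZFPM2, PGM5, SLCO1B3 and ANKRD30A, higher in both, and SOX11 and EYA1, lower in both. The ninth, TRO, was at 1.34 ± 0.214 CPM in crossed and 2.78 ± 1.01 CPM in uncrossed cells (edgeR, adjusted p = 0.0794). The Parental comparison was added after the levels of the named genes had been seen, and its count of 9 depends on the fit. It was 3 to 18 when 1 library was left out, 77 with DESeq2, 1 with only the compared groups, not among the 9, and 0 with the replicate number as a block. Beyond the called genes, 121 of the 128 higher and 173 of the 187 lower genes lay on the same side of 0 in the Parental sort, against 59.0% and 61.4% of all genes higher or lower here.

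FOXP1, a forkhead transcription factor, was at 29.5, 26.2 and 24.4 CPM in crossed libraries and at 5.13, 3.02 and 2.15 CPM in uncrossed libraries. The lowest crossed library was thus well above the highest uncrossed one, and the spread within each group was small. Its fold change was 2.96 ± 0.33 in log2 (edgeR, adjusted p = 1.54e-05), and the Parental sorts stood at 19.2 ± 2.96 CPM for positive and 4.54 ± 1.15 CPM for negative cells. FBXL7, a substrate receptor of a ubiquitin ligase, was at 25.1, 26.7 and 18.1 CPM in crossed and 3.93, 3.95 and 2.42 CPM in uncrossed libraries (log2 fold change 2.76 ± 0.30, edgeR, adjusted p = 1.03e-05). ZFPM2, a zinc finger cofactor of GATA factors, was at 39.6, 32.9 and 31.9 CPM in crossed and 4.97, 8.70 and 6.72 CPM in uncrossed libraries (2.35 ± 0.23, edgeR, adjusted p = 2.9e-06). These 3 genes kept their call in each of the 6 fits that left out a library and in the fit without uncrossed replicates 1 and 3.

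SOX11, a SOX-family transcription factor of early neural development, had the smallest p of all genes. Its level was 14.2, 11.9 and 9.81 CPM in crossed libraries and 123, 112 and 84.4 CPM in uncrossed libraries, and the log2 fold change was -3.15 ± 0.31 (edgeR, adjusted p = 2.9e-06) and -3.23 without uncrossed replicates 1 and 3. The Parental negative sort was at 114 ± 25.8 CPM, near the uncrossed cells, and the Parental positive sort at 36.3 ± 14.4 CPM, between the groups. EYA1, a transcriptional coactivator with phosphatase activity, was at 5.45, 7.27 and 4.25 CPM in crossed and 21.4, 24.7 and 16.8 CPM in uncrossed libraries (-1.89 ± 0.30, edgeR, adjusted p = 0.00118). Both genes kept their call in all fits that left out a library. PGM5, a phosphoglucomutase relative found at cell adhesions, was at 20, 7.92 and 7.88 CPM in crossed libraries and at 0.160, 0.864 and 0.672 CPM in uncrossed libraries (4.35 ± 0.58, edgeR, adjusted p = 0.000197), and its near-identical copies make the split of its reads uncertain. In FOXP1, FBXL7 and ZFPM2 the group means fell in 1 order, crossed, Parental positive, Parental negative and uncrossed, from high to low.

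**Figure D2:**
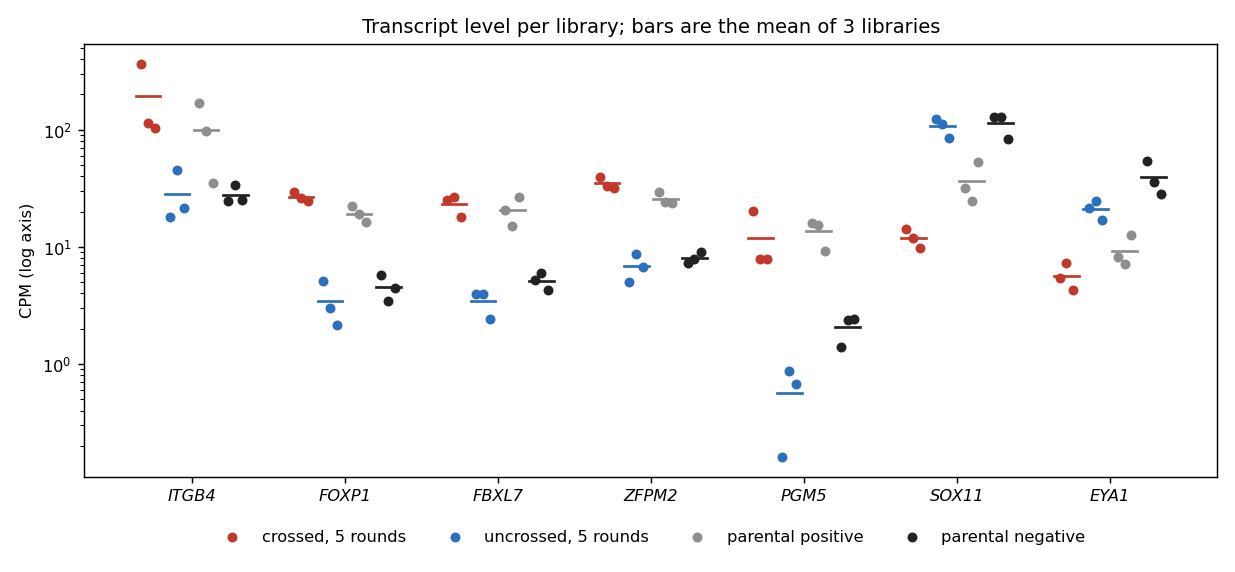
CPM on a log axis for ITGB4 and 6 genes called in the comparison, with 1 point per library and a bar at the mean of 3 libraries, in crossed, uncrossed, Parental positive and Parental negative cells. For FOXP1 the crossed libraries lie at 24.4 to 29.5 CPM and the uncrossed at 2.15 to 5.13 CPM, and for SOX11 the crossed libraries lie lowest, at 9.81 to 14.2 CPM.

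The stretch of 250 bases before the first listed start is shown for the called named genes of each direction with the smallest p in the RefSeq promoter table of GRCh38.p14, to set the sequence of genes that moved apart side by side. Capitals mark a match to GCCNNNGGC, a TFAP2-type motif, on either strand. The FBXL7 stretch lies at chr5:15499930-15500179 on the plus strand, that of FOXP1 at chr3:71583729-71583978, that of SORCS1 at chr10:107164707-107164956 and that of FREM1 at chr9:14910996-14911245, the last 3 on the minus strand.
FBXL7: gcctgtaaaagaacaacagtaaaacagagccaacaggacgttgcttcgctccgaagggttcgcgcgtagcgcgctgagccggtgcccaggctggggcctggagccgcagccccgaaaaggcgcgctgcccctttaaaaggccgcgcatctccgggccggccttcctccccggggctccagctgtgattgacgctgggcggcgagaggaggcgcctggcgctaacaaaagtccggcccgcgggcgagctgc
FOXP1: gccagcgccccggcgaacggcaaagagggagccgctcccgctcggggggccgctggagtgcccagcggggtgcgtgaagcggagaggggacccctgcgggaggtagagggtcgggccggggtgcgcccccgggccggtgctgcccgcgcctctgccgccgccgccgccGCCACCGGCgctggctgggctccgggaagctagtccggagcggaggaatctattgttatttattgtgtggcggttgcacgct
SORCS1: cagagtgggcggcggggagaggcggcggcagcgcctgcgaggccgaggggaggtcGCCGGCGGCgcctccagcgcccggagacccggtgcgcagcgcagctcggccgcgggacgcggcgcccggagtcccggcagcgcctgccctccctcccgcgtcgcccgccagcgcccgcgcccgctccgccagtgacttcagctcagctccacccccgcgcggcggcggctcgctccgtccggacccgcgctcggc
FREM1: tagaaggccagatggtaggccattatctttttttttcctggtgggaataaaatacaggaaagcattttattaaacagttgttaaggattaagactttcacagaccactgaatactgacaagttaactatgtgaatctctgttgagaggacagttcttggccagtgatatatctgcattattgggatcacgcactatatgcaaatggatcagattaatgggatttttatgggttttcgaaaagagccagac
FBXL7 and FOXP1 were higher and SORCS1 and FREM1 lower in the crossed cells. The first 3 are rich in CpG, with 27, 31 and 45 CpG dinucleotides, and the FREM1 stretch has 2. The TFAP2-type motif occurred once in FOXP1 and once in SORCS1, so on both sides of the comparison. Among genes with a listed promoter, 22.9% of the 96 higher, 25.8% of the 132 lower and 27.4% of all 11262 tested held it. The other letters searched on both strands were TGANTCA (AP-1), GGAATG (TEAD), AACAAAG (SOX) and TGTTTAC (forkhead), and none of the 4 stretches held any. Shares for the higher, the lower and all tested genes were 4.17%, 8.33% and 4.18% for AP-1 and 12.5%, 9.09% and 9.66% for TEAD. For SOX they were 4.17%, 5.30% and 2.87%, and for the forkhead letters 3.12%, 3.03% and 1.91%.

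The named genes with the largest rise in crossed cells had varied roles. SLCO1B3, an organic anion transporter, was at 7.11, 4.09 and 4.76 CPM in crossed libraries and at 0.321, 0 and 0.403 CPM in uncrossed libraries (log2 fold change 4.47 ± 0.62, edgeR, adjusted p = 0.000392). TRPC4, a subunit of calcium-permeable cation channels, was at 7.22, 4.04 and 4.82 CPM in crossed and 0.481, 0.123 and 0.471 CPM in uncrossed libraries (3.91 ± 0.48, edgeR, adjusted p = 6.63e-05). Both were called without uncrossed replicates 1 and 3 as well. MME, the cell-surface peptidase neprilysin, was at 20.4, 3.56 and 6.69 CPM in crossed and 0.802, 0.679 and 0.874 CPM in uncrossed libraries, a fold change that leaned on crossed replicate 1 (3.70 ± 0.70, edgeR, adjusted p = 0.00478, and 0.0612 without that library). SH3GL2, an endophilin of endocytosis, stood at 12.5, 7.27 and 7.26 CPM in crossed libraries, and at 1.12, 1.23 and 1.08 CPM in uncrossed libraries. The uncrossed libraries hardly differed from each other there (2.97 ± 0.45, edgeR, adjusted p = 0.000683).

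The cytokine gene IL1B was at 9.04, 7.54 and 1.76 CPM in crossed and 0.802, 0.555 and 0.403 CPM in uncrossed libraries (3.38 ± 0.77, edgeR, adjusted p = 0.0206), and its adjusted p was up to 0.106 when crossed replicate 1 was left out. It was 1 of 25 tested genes of NF-κB and inflammatory signalling called, with 20 of the 25 above 0, against 47.6% of all genes. CALB1, the calcium buffer calbindin, averaged 9.51 ± 7.43 CPM in crossed and 1.19 ± 0.517 CPM in uncrossed cells, and its call was lost without crossed replicate 1 (edgeR, adjusted p = 0.171). BTBD11 and PLXDC2 rose by 3.52 and 3.35 on the log2 scale and kept their calls in all fits that left out 1 library, PLXDC2 not without both uncrossed replicates 1 and 3 (edgeR, adjusted p = 0.182). PGM5P2 was 2.81 ± 0.70 higher on the log2 scale, but as a near-identical copy of PGM5 it cannot be told apart from it with certainty.

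**Figure D3:**
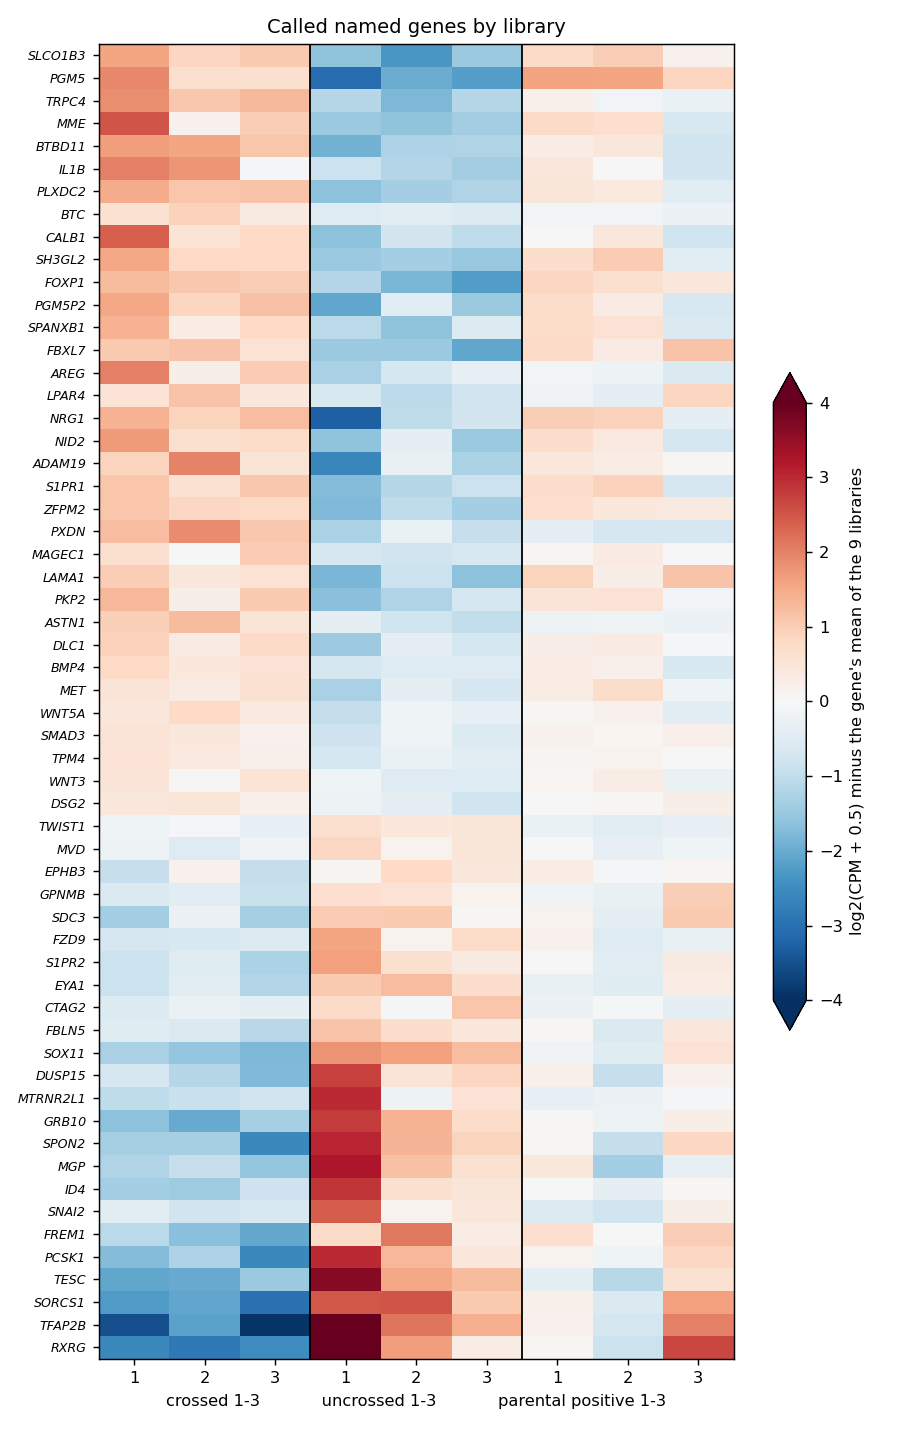
Rows are the 58 called named genes, ordered by fold change, and columns are 3 crossed, 3 uncrossed and 3 Parental positive libraries; colour gives log2(CPM + 0.5) less the gene's mean over the 9 libraries, with the scale ending at 4 each way. The lowest rows, RXRG and TFAP2B, are darkest in uncrossed replicate 1, where TFAP2B was at 505 CPM.

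The named genes with the largest falls included transcription factors and receptors known from neural crest and neural cells. TFAP2B, a neural crest transcription factor, was at 1.43, 4.53 and 0.964 CPM in crossed libraries and at 505, 96.4 and 60.2 CPM in uncrossed libraries. All uncrossed libraries were higher, uncrossed replicate 1 by far (log2 fold change -6.59 ± 1.22, edgeR, adjusted p = 0.00397, and 0.0585 without uncrossed replicates 1 and 3). RXRG, a retinoid X receptor used as a marker of the neural crest-like melanoma state, was at 0.309, 0.162 and 0.340 CPM in crossed and 79.7, 14.7 and 5.44 CPM in uncrossed libraries (-6.90 ± 1.37, edgeR, adjusted p = 0.00719, and 0.062 without crossed replicate 1). SORCS1, a neuronal sorting receptor, was at 0.695, 0.862 and 0.227 CPM in crossed and 31.3, 31.9 and 11.3 CPM in uncrossed libraries (-5.35 ± 0.74, edgeR, adjusted p = 0.00029). Its fall was as large without uncrossed replicates 1 and 3, at -5.71, and stayed called (edgeR, adjusted p = 0.00228).

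TESC, a calcium-binding regulator of the sodium-proton exchanger, was at 0.772, 0.808 and 1.42 CPM in crossed and 66.3, 15.1 and 12.4 CPM in uncrossed libraries (-4.97 ± 0.79, edgeR, adjusted p = 0.00102), and stayed called without the uncrossed libraries that stood apart (-3.93, adjusted p = 0.0272). The prohormone convertase PCSK1 was at 1.82, 2.80 and 0.794 CPM in crossed and 60.7, 19.1 and 10 CPM in uncrossed libraries, and its adjusted p was up to 0.264 when uncrossed replicate 1 was left out. MGP, a matrix inhibitor of calcification, SPON2, a secreted matrix protein, and GRB10, an adaptor of insulin and growth factor receptors, fell by 3.90, 3.82 and 3.79 on the log2 scale. Their adjusted p (edgeR) without uncrossed replicate 1 was 0.179, 0.0679 and 0.0697. DUSP15, a phosphatase, and MTRNR2L1, a nuclear copy of mitochondrial sequence and so uncertain, also leaned on uncrossed replicate 1, with 17.2 and 12.6 CPM in uncrossed replicate 1 against 3.33 and 0.925 CPM in uncrossed replicate 2, and their adjusted p without replicate 1 was 0.0855 and 0.356.

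The 32 tested genes of the neural crest and SOX list, drawn up with earlier results known, included the GATA cofactor ZFPM2 and the forkhead factor FOXP1. These 2 rose and 6 fell (SOX11, EYA1, TFAP2B, RXRG, SOX4 and SOX8), while the median of the list was 0.04. Of these 8, 4 stayed called without uncrossed replicates 1 and 3. SOX4, a relative of SOX11, averaged 10.1 ± 1.95 CPM in crossed and 46.6 ± 41.9 CPM in uncrossed cells (edgeR, adjusted p = 0.043), and SOX8, a relative of SOX10, 0.142 ± 0.0801 CPM in crossed and 2.79 ± 2.53 CPM in uncrossed cells (adjusted p = 0.0434). Among 16 tested melanocytic genes 1 fell and 0 rose, with a median of -0.44 (-0.21 without the 2 libraries). It was GPNMB, a melanosome glycoprotein, at 70.6, 77.2 and 56.5 CPM in crossed and 166, 156 and 116 CPM in uncrossed libraries (-1.10 ± 0.29, edgeR, adjusted p = 0.0475, and 0.2 without uncrossed replicate 1).

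Of 31 tested genes of the dedifferentiated melanoma state, 4 rose and 0 fell, and 27 had a fold change above 0. Over all tested genes 0.832% were called higher and 47.6% were above 0. The median of the list was 0.67 (0.56 without uncrossed replicates 1 and 3). WNT5A, a ligand of noncanonical WNT signalling, was at 67.3, 86.0 and 63.4 CPM in crossed and 25.1, 43.1 and 38.9 CPM in uncrossed libraries (1.02 ± 0.22, edgeR, adjusted p = 0.0115). NRG1, a ligand of ERBB3, was at 40.4, 28.5 and 36.7 CPM in crossed and 1.12, 7.22 and 9.01 CPM in uncrossed libraries (2.60 ± 0.62, edgeR, adjusted p = 0.0263). The others were BMP4, a bone morphogenetic protein, and SMAD3, a transducer of TGF-β signals, which rose by 1.35 and 0.86 on the log2 scale. None of the 4 was called without the uncrossed libraries that stood apart. EGFR, the receptor of epidermal growth factor, averaged 31.8 ± 6.36 CPM in crossed and 5.10 ± 4.58 CPM in uncrossed cells (edgeR, adjusted p = 0.0557), and AXL, a receptor of the same class, 532 ± 127 CPM in crossed and 279 ± 111 CPM in uncrossed cells (adjusted p = 0.219).

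Ligands and receptors of receptor tyrosine kinases were called in 1 direction, 5 of 34 tested higher and 0 lower, with a median of 0.28 (0.26 without uncrossed replicates 1 and 3, where 0 were called). Besides NRG1 these were the EGFR ligands AREG and BTC and the receptors MET and FGFR1. AREG was at 6.76, 1.62 and 3.17 CPM in crossed and 0.240, 0.617 and 0.941 CPM in uncrossed libraries (2.66 ± 0.58, edgeR, adjusted p = 0.0155, and 0.141 without crossed replicate 1). MET, the receptor of hepatocyte growth factor, was at 215, 188 and 231 CPM in crossed and 61.7, 118 and 95.3 CPM in uncrossed libraries (1.20 ± 0.31, edgeR, adjusted p = 0.0433, and 0.276 without uncrossed replicate 1). FGFR1, a fibroblast growth factor receptor, averaged 42.7 ± 3.51 CPM in crossed and 22.9 ± 9.04 CPM in uncrossed cells (edgeR, adjusted p = 0.0466). BTC was at 0.567 to 1.08 CPM in crossed and 0.0672 to 0.123 CPM in uncrossed libraries. No gene of 22 in MAPK output and feedback and none of 14 AP-1 genes was called. FOSL1, an AP-1 gene downstream of MAPK, was at 638, 461 and 536 CPM in crossed and 86.6, 296 and 271 CPM in uncrossed libraries (edgeR, adjusted p = 0.0995).

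Basement membrane genes were called in both directions, 4 of 23 higher and 1 lower, with a median of 0.60 (0.38 without uncrossed replicates 1 and 3, where FREM1 alone was called). PXDN, the peroxidase that cross-links collagen IV, was at 22.2, 34.7 and 19.9 CPM in crossed and 3.45, 7.53 and 4.5 CPM in uncrossed libraries (2.30 ± 0.37, edgeR, adjusted p = 0.00119). LAMA1, a laminin α chain, was at 15, 10.1 and 11.2 CPM in crossed and 1.68, 3.76 and 2.02 CPM in uncrossed libraries (2.27 ± 0.50, edgeR, adjusted p = 0.0152), and NID2, which links laminin to collagen IV, averaged 8.54 ± 3.98 CPM in crossed and 1.56 ± 1.06 CPM in uncrossed cells (adjusted p = 0.00809). FRAS1, a matrix protein of epithelial basement membranes, rose by 2.24 on the log2 scale, and FREM1, from the same matrix complex, fell. FREM1 was at 0.579, 0.215 and 0.0567 CPM in crossed and 3.37, 9.38 and 2.29 CPM in uncrossed libraries (-4.03 ± 0.73, edgeR, adjusted p = 0.00332, and 0.00389 without uncrossed replicates 1 and 3). Only 1 of 33 interstitial matrix genes was called, the elastic fibre protein FBLN5, lower at 0.162 ± 0.143 CPM in crossed and 1.34 ± 0.461 CPM in uncrossed cells.

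Among 30 matrix proteases and inhibitors, ADAM19 and MME rose and 0 fell. ADAM19, a membrane sheddase, was at 67.7, 144 and 52.0 CPM in crossed and 5.45, 29.1 and 14.7 CPM in uncrossed libraries (2.41 ± 0.42, edgeR, adjusted p = 0.0025), and kept its call in all fits that left out 1 library, but not without both uncrossed replicates 1 and 3 (1.59, adjusted p = 0.346). Of 36 focal adhesion and actomyosin genes, the tropomyosin TPM4 alone rose (617, 551 and 486 CPM in crossed and 258, 355 and 311 CPM in uncrossed libraries, edgeR, adjusted p = 0.0261), and of 26 YAP and TEAD targets DLC1 alone. DLC1 was at 120, 78.7 and 107 CPM in crossed libraries, and at 22.6, 48.1 and 38.2 CPM in uncrossed libraries (1.49 ± 0.36, edgeR, adjusted p = 0.027). TPM4 and DLC1 lost their calls without uncrossed replicates 1 and 3 (edgeR, adjusted p = 0.907 and 0.985) and in 4 of the 6 fits that left out a library. The YAP and TEAD list had 23 of 26 members above 0, against 47.6% of all genes. Its median was 0.50, and 0.45 without uncrossed replicates 1 and 3. None of 18 genes of the nuclear envelope and of the LINC complex, which couples the nucleus to the cytoskeleton, and none of 33 chromatin architecture genes was called. SUN1, an inner nuclear membrane protein of that complex, had the smallest p of the nuclear envelope list, at 118, 101 and 100 CPM in crossed and 75.7, 88.6 and 71.5 CPM in uncrossed libraries (edgeR, adjusted p = 0.202).

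In the sphingosine phosphate and LPA list 2 of 19 rose and 1 fell. S1PR1, a receptor that promotes migration toward the lipid, was at 11.7, 8.19 and 11.5 CPM in crossed and 1.20, 2.10 and 2.62 CPM in uncrossed libraries (2.40 ± 0.50, edgeR, adjusted p = 0.011). S1PR2, a receptor of the same lipid, was at 9.85, 12.9 and 7.31 CPM in crossed and 58.0, 28.7 and 23.6 CPM in uncrossed libraries (-1.87 ± 0.43, edgeR, adjusted p = 0.021), and LPAR4, a lysophosphatidic acid receptor, rose by 2.61 on the log2 scale. The 2 S1P receptors thus moved in opposite directions. Without uncrossed replicate 1 the adjusted p (edgeR) was 0.0921 for S1PR1 and 0.181 for S1PR2. Of 19 cadherins and EMT factors, SNAI2 and TWIST1, both transcription factors of the epithelial-mesenchymal transition, fell and 0 rose. Called or not, 11 of the 19 were above 0, against 47.6% of all tested genes. The median of that list was 0.22 (-0.06 without uncrossed replicates 1 and 3). TWIST1 was at 19.7, 21.4 and 17.5 CPM in crossed and 35, 29.6 and 31.2 CPM in uncrossed libraries (-0.71 ± 0.18, edgeR, adjusted p = 0.0379, and 0.179 without uncrossed replicate 1). SNAI2 was below 1 CPM in all libraries other than uncrossed replicate 1, at 4.65 CPM.

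Counts in the other lists were small. Of 25 TGF-β genes 2 rose (BMP4 and SMAD3) and 1 fell, ID4, an inhibitor of helix-loop-helix factors, which averaged 0.469 ± 0.232 CPM in crossed and 7 ± 7.41 CPM in uncrossed cells. Of 32 WNT genes WNT5A and the ligand WNT3 rose and the receptor FZD9 fell. In the list of 41 Eph receptors, ephrins, semaphorins, plexins and related genes PLXDC2 rose and EPHB3 fell. PLXDC2 is named for a plexin domain and is not itself a plexin. Of 30 neural adhesion and guidance receptors ASTN1 rose and SORCS1 fell. Of 23 cancer-testis antigens SPANXB1 and MAGEC1 rose and CTAG2 fell, and as members of families of near-identical genes SPANXB1 and CTAG2 are uncertain. The cell-surface proteoglycan SDC3 and the sterol synthesis enzyme MVD fell. No gene was called in the interferon, antigen presentation, unfolded protein, p53, DNA damage, glycolysis, replication, mitosis or insulin-like growth factor lists. Outside the lists, HLA-DQB1, HLA-DQB2 and HLA-DRB6 were called lower in crossed cells. Their log2 fold changes were -2.27, -2.10 and -2.12 (edgeR, adjusted p = 0.0229, 0.0223 and 0.0432). HLA-DRB1, of the antigen presentation list, was at -1.98 (edgeR, adjusted p = 0.055), and at -1.17 without uncrossed replicates 1 and 3.

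**Figure D4:**
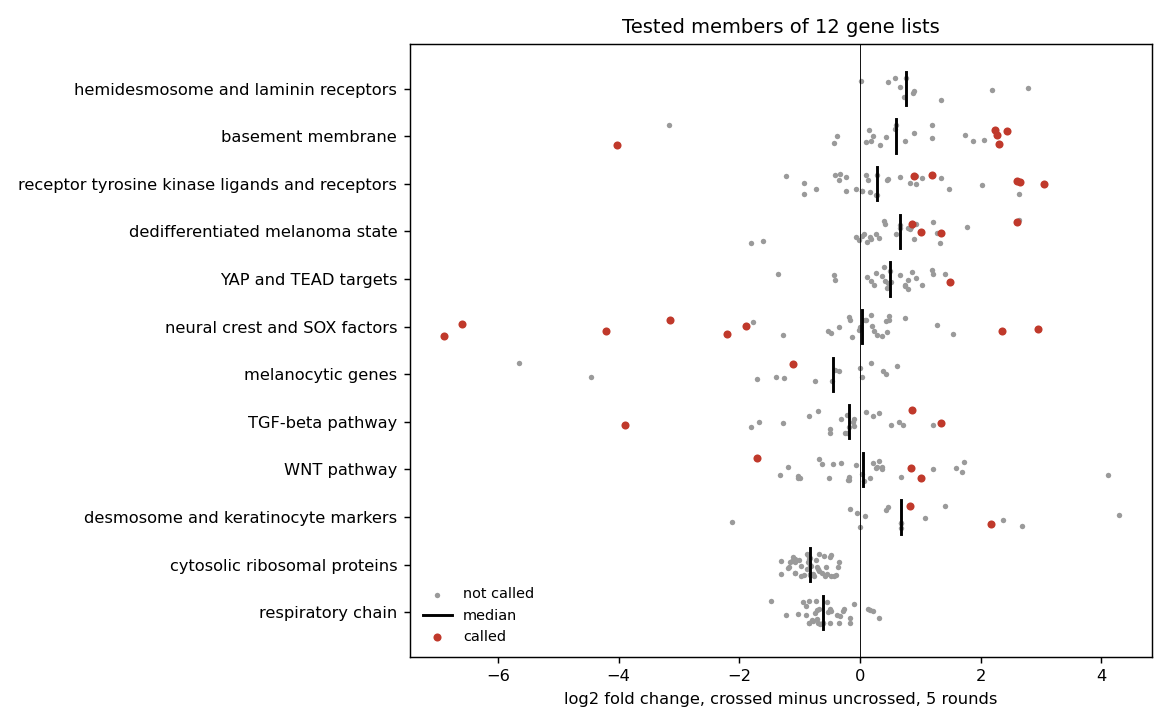
Each point is a tested member of 1 of 12 gene lists, with the log2 fold change (crossed minus uncrossed, 5 rounds) on the x axis, called members in red and a black bar at the list's median. The neural crest list spans -6.90 to 2.96, and all 45 ribosomal protein genes lie below 0 with none called.

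All 45 cytosolic ribosomal protein genes had a fold change below 0, with a median of -0.82, and 0 were called, although 36 had an unadjusted p under 0.05. Without uncrossed replicates 1 and 3 the median was 0.14. The respiratory chain list had 33 of 37 members below 0 and none called, with a median of -0.61 and of 0.11 without the 2 libraries. Over 4 length classes of equal size, genes with the shortest transcripts had a median of -0.33 and those with the longest 0.19, against 0.07 and 0.02 without the 2 libraries. In the shortest class 17 called genes were higher and 59 lower, and in the longest 51 were higher and 40 lower. Reads assigned to no gene made up 23.0 to 24.3% in crossed and 25.7 to 31.8% in uncrossed libraries. The part of these differences in the calls was not tested beyond the fits without the 2 libraries.

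Markers of other cell types were examined in the same way. Of 17 desmosome and keratinocyte markers, PKP2 and DSG2, both desmosome components, rose and 0 fell, with a median of 0.69 (0.78 without uncrossed replicates 1 and 3). PKP2 was at 33.3, 15.4 and 27.3 CPM in crossed and 3.69, 5.37 and 7.66 CPM in uncrossed libraries (2.18 ± 0.36, edgeR, adjusted p = 0.00127), and DSG2 at 85.9, 90.0 and 73.5 CPM in crossed and 55.2, 48.4 and 36.7 CPM in uncrossed libraries (adjusted p = 0.0379). The summed level of the list was 430.5 to 499.2 CPM in crossed and 342.9 to 453.6 CPM in uncrossed libraries, and CDH1, the epithelial cadherin, was at 0.12 ± 0.147 CPM in crossed cells and 0 CPM in uncrossed cells. None of 8 fibroblast, 6 endothelial or 4 leukocyte markers tested was called. Fibroblast markers summed to 177.7 to 294.7 CPM in crossed and 224.9 to 327.2 CPM in uncrossed libraries, endothelial markers to 8.67 to 18.2 CPM in crossed and 6.89 to 13.8 CPM in uncrossed libraries. Leukocyte markers summed to 60.3 to 134.5 CPM in crossed and 48.6 to 86.0 CPM in uncrossed libraries. The leukocyte genes CD3E and MS4A1 had 0 counts in the 6 libraries.

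The comparison of crossed with uncrossed positive cells after 10 rounds, in libraries not shared with the 6, called 145 genes (0.943%). Of these, 97 were higher (0.631%) and 48 lower (0.312%) in crossed cells. The crossed libraries of 10 rounds have titles in the form of the uncrossed ones, with side and rounds before the sort. The titles of the crossed libraries of 5 rounds name the sort first. Equal replicate numbers deviated together in the 2 groups of 10 rounds, with correlations of 0.26, 0.57 and 0.55, and with the replicate number as a block 584 genes were called. Crossed replicate 3 of 10 rounds stood apart on the second principal component, with a score of 35.1. Its ribosomal protein sum was 75404 CPM, against 52710 and 63358 CPM in crossed replicates 1 and 2 of 10 rounds. Without that library 79 genes were called at 10 rounds. After both 5 and 10 rounds 62 genes were called (19.7% of the 315 and 42.8% of the 145), all 62 in the same direction, 40 higher and 22 lower. Of the 128 higher genes 117 were above 0 after 10 rounds and of the 187 lower genes 145 were below 0, against 50% and 42.6% of all genes. FOXP1 had nearly the same fold change at both times, 2.96 ± 0.33 after 5 rounds and 2.98 ± 0.33 after 10 rounds. PGM5, ZFPM2, SH3GL2, TRPC4, S1PR1 and EYA1 were called at both, and so were SORCS1 and FREM1.

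No gene passed the test of the difference between 5 and 10 rounds (0%, edgeR; 1910 genes, or 12.4%, at an unadjusted p under 0.05, and 48 genes with DESeq2). SOX11 had a log2 fold change of -3.15 after 5 rounds and -1.48 after 10 rounds, a difference of -1.67, with an unadjusted p of 0.000372 and an adjusted p of 0.207 (edgeR). SLCO1B3, with 4.47 ± 0.62 after 5 rounds and 1.75 ± 0.66 after 10 rounds, had an adjusted p of 0.378 for the difference. ASTN1, a neuronal adhesion protein, had 2.02 ± 0.49 after 5 rounds and 3.86 ± 0.51 after 10 rounds (adjusted p = 0.379, edgeR). A fold change that passed at 1 time only is therefore not shown to differ between the times. The crossed cells of 5 and of 10 rounds also differ in whether the label places the sort before migration. The number of rounds and the time of the sort therefore cannot be told apart in this test.

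**Figure D5:**
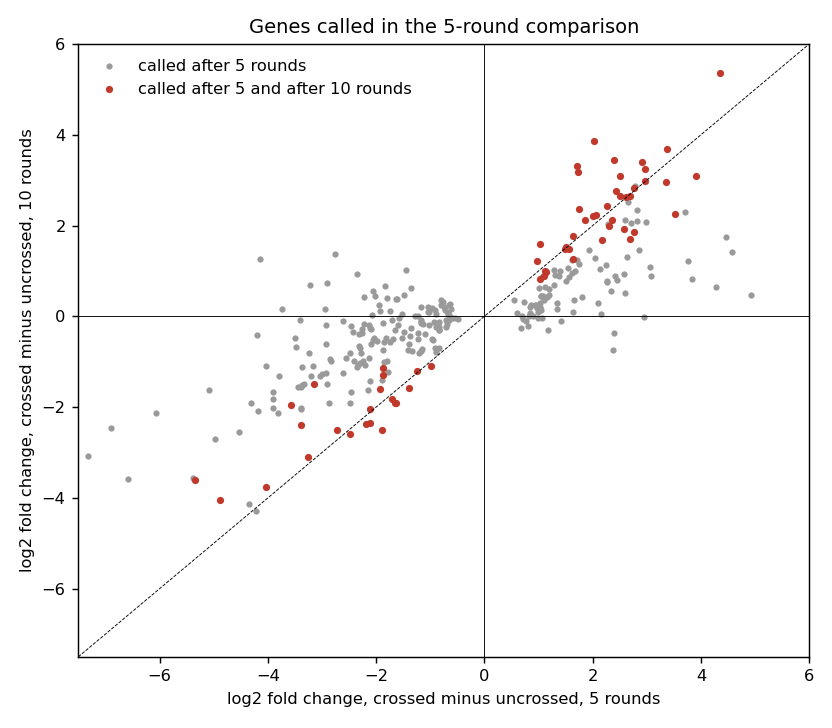
Each point is 1 of the 315 genes called after 5 rounds, with the log2 fold change (crossed minus uncrossed, positive sort) after 5 rounds on the x axis and after 10 rounds on the y axis, and a dashed line of equality. The 62 genes in red, called at both times, all lie either above 0 or below 0 on both axes.

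For the time of the sort, the crossed groups whose labels give the 2 orders and that lie closest in rounds are both of the negative sort, cells sorted and then migrated for 4 rounds and cells migrated for 5 rounds and labelled negative, with no library in common with the 6. In that pair 0 genes were called (0%, edgeR, with 353 at an unadjusted p under 0.05, and 0 with DESeq2). Replicate 2 of each group stood apart on the second principal component, with scores of 97.2 (sorted, then migrated) and 38.4. No fit of the pair left out both of these libraries. Of the 128 higher genes 89 and of the 187 lower genes 119 lay on the same side of 0 there, against 46.9% and 45% of all genes higher or lower. FOXP1, FBXL7 and ZFPM2 had log2 differences of -0.01, 0 and 0.04 in that pair, and SOX11 of 0.20. Other named genes differed more. PXDN (1.15), ADAM19 (0.74), GRB10 (-2.22) and RXRG (-1.88) lay on the side of their main fold change, and MGP (1.22) and EYA1 (0.54) on the other. The part of the sort order in the calls was not tested. The pair concerns negative cells and differs by 1 round, so it does not measure the order in positive cells.

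The Parental positive cells, which had a positive sort and no migration, lay at different distances from the 2 groups in the matrix genes PXDN and LAMA1. PXDN was near the uncrossed level, with 25.6 ± 7.99 CPM in crossed, 5.16 ± 2.12 CPM in uncrossed and 5.89 ± 0.715 CPM in Parental positive cells. LAMA1 was at 12.1 ± 2.56 CPM in crossed, 2.49 ± 1.12 CPM in uncrossed and 13.2 ± 4.07 CPM in Parental positive cells.

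Of the 58 named genes that were called, 18 kept their call in each of the 6 fits that left out a library. They were SLCO1B3, PGM5, TRPC4, BTBD11, PLXDC2, SH3GL2, FOXP1, FBXL7, PXDN, ADAM19, ZFPM2 and PKP2, higher in crossed cells, and TFAP2B, SORCS1, TESC, FREM1, SOX11 and EYA1, lower in crossed cells. Each of the others lost its call in at least 1 of these fits, most often without uncrossed replicate 1 (37 genes) or crossed replicate 1 (36 genes). The fit without uncrossed replicates 1 and 3 called 11 named genes, namely SLCO1B3, TRPC4, BTBD11, FOXP1, FBXL7 and ZFPM2 among the higher and SORCS1, TESC, FREM1, SOX11 and EYA1 among the lower. The direction was kept by all 78 named genes in each of these fits. Apart from ITGB4 they were chosen by fold change or p in these same libraries, so this is no separate support.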

How the data were processed

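Polyadenylated RNA had been sequenced in 30 libraries of 10 groups. Each library's table, as deposited, holds unnormalised whole-number read counts for gene symbols. The submitters' processing notes name STAR, HTSeq, DESeq and hg19; versions, annotation and strand setting are not given in the sources used here. Rows that name no gene (23.0 to 31.8% of reads in the 6 libraries) were left out.

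Counts were fitted with edgeR 4.0.16 (quasi-likelihood, TMM, R 4.3.3) over all 10 groups, after a filter at a minimum count of 10 and a minimum total of 15. Calls needed an adjusted p under 0.05 (Benjamini-Hochberg over 15381 genes). The SE is the log2 fold change divided by the square root of F. CPM used TMM-scaled library sizes; log levels, used for principal components, a prior count of 2. The fit was tested on simulated data. All groups share 1 estimate of the spread.

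The groups, the 40 gene lists and the named genes rest on choices made with earlier results of these data known. Named genes were ITGB4, the 12 highest and 12 lowest called fold changes (mean of at least 5 CPM in 1 group, no overlap of 3 and 3 libraries) and, per list, up to 4 called members by p or else the member with the smallest p; others are given as list members. Alternatives were DESeq2 1.42.0, RLE factors, no filter, only the compared groups, a replicate block and leaving out each library; the fits without libraries that stood apart (second component above 30) and the Parental sort comparison were chosen after seeing the data. No replicate pair was a copy (chi-square per degree of freedom of at least 11.6). Equal numbers paired the 10-round groups, and those of the negative sort, by correlations above 0.1 for each number. Promoter sequences came from RefSeq (GRCh38.p14) for 11262 of the tested genes, matched by symbol, at the first listed start; chromosomes from RefSeq for 98.1% and transcript lengths from GENCODE for 94.1% of tested genes.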

Additional observations from a re-analysis of the deposited data

How the results depend on the processing

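The count of 315 genes was 801 with DESeq2, 323 with RLE factors and 222 with no filter. It was 1 with only the compared groups in the fit, where the spread rests on 6 libraries, and 3 with the replicate block in those groups. Leaving out 1 library gave 97 to 1287 genes. Without crossed replicates 1, 2 and 3 it was 97, 176 and 146, and without uncrossed replicates 1, 2 and 3 it was 116, 1287 and 218. Without uncrossed replicates 1 and 3 it was 48, and 66 without the 6 libraries of the series that stood apart. Fits that left out libraries or groups had fewer samples, and the cause of the different counts was not tested. Log levels correlated at 0.917 to 0.976 between uncrossed replicates and at 0.975 to 0.982 between crossed replicates. The spread used for the 315 was estimated over all groups and not for these 2 alone. Equal replicate numbers correlated at 0.20, 0.05 and 0.32 between the 2 groups, so the numbers were not taken to pair them, although every library correlated best with its own number.

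The difference between 5 and 10 rounds gave 48 genes with DESeq2, 0 to 2 when 1 library was left out, and 0 with RLE factors, no filter, only the compared groups, the block and without the 6 libraries. At 10 rounds, 145 became 285 with DESeq2, 31 with only the compared groups, 584 with the replicate block and 53 to 113 when 1 library was left out. The Parental sort gave 77 with DESeq2, 1 with only the compared groups, 0 with the replicate block and 3 to 18 when 1 library was left out. The pair of orders in the negative sort gave 0 in every fit run, none of which left out both libraries of the pair that stood apart. Of the 58 called named genes, 36, 22 and 23 lost the call without crossed replicates 1, 2 and 3, 37, 2 and 20 without uncrossed replicates 1, 2 and 3, 54 with only the compared groups and 53 with the block. In the last 2 fits 4 named genes (SNAI2, BTC, CTAG2 and CD14) did not pass the filter and had no value. Among the named genes with a value, 0 changed sign, which their choice from these same libraries made likely. The effect of depth on the calls was not tested.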

Other observations

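By position, on chromosome 20, 0 of 408 tested genes were called higher and 16 lower in crossed cells (3.92% called, against 2.05% of all genes), and the median log2 fold change was -0.23, against -0.03 over all genes. The median was -0.25 without uncrossed replicates 1 and 3, and 0.04 in the 10-round comparison. Relative to the mean of the Parental positive libraries, and less each library's median over all genes, the chromosome 20 median was -0.15, -0.17 and -0.13 in the crossed libraries and 0, 0.11 and 0.11 in the uncrossed libraries. It was 0.08 to 0.14 in cells that crossed in 10 rounds and 0.07 to 0.09 in cells that did not.

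On chromosome 13 the median log2 fold change over 275 genes was -0.08 after 5 rounds and -0.41 after 10 rounds. By library, it was -0.02, -0.02 and -0.07 in the crossed cells of 5 rounds and -0.28, -0.32 and -0.40 in those of 10 rounds. Chromosome 19 had 1 called gene higher and 19 lower of 1079 (1.85% called, against 2.05% of all genes), with a median of -0.17 (-0.10 without uncrossed replicates 1 and 3). Chromosome 11 had 1 higher and 17 lower of 830 (2.17%), with a median of -0.08.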
